A study of Mus musculus with 9 samples.

Results

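The transcriptome of the control morula was described from the 3 libraries of mouse embryos that received nonspecific control siRNA (group NC), which are 3 of the 9 libraries of the series. They were chosen by their label alone, and no level given below comes from a knockdown library. The embryos were wild type on the B6D2F1 hybrid background, were injected as zygotes and were collected at E2.75. Each library was made from a pool of 60 embryos, and RFP and GFP mRNA was added to each pool before RNA was extracted. The other 6 libraries of the series come from zygotes injected with siRNA against Sin3a or against Hdac1 and Hdac2, so the control embryos share with them the injection of an siRNA. No uninjected embryo was analysed here, and the labels do not say whether the 3 pools came from separate collections, so the spread between them may be technical. The unit throughout is the normalised count, the gene-level read count after the authors' DESeq2 scaling, and groups of 3 values are given in the order of NC replicates 1, 2 and 3. Errors are standard deviations over the 3 libraries (n = 3).

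At this age the mouse embryo is a morula, a ball of blastomeres that has compacted by tightening its cell contacts and is about to separate an outer layer, the future trophectoderm, from an inner cell mass. Outer cells acquire an apical domain, Hippo signalling is then silenced in them, and YAP with TEAD4 switches on trophectoderm genes, while inner cells keep the pluripotency factors. Maternal mRNA has by then been largely replaced by transcripts of the embryo's own genome. Since whole embryos were pooled, fewer cells of a type and less RNA per cell cannot be told apart in these values.

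The 3 libraries held totals of 13.5, 12.8 and 13.0 M normalised counts. From the steps between low values the depth was estimated at 17.0, 12.2 and 8.38 M reads, so that 1 read was worth 0.792, 1.05 and 1.55 normalised counts. NC replicate 1 was thus the deepest and NC replicate 3 the shallowest, and the 3 control libraries came from different lanes (5, 2 and 3), so among them library, lane and depth cannot be told apart. The added RFP and GFP mRNAs have 0 entries among the named genes, and no value was scaled to them.

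Of 20087 named genes, 11037 (54.9%) had at least 10 normalised counts in each of the 3 libraries and are called expressed. That share, 54.9%, is the background against which counts of listed genes are read. Members of a list that have no entry among the named genes are left out of its counts. Expressed genes carried 99.6% of the summed means and had a median mean of 347 normalised counts. A further 1498 genes (7.46%) had a mean of at least 10 but lay under 10 in at least 1 library, and these are called unsteady. Weak genes, with a mean above 0 and under 10, numbered 5509 (27.4%), and 2043 genes (10.2%) were listed at 0 in all 3 libraries and are called absent.

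**Figure D1:**
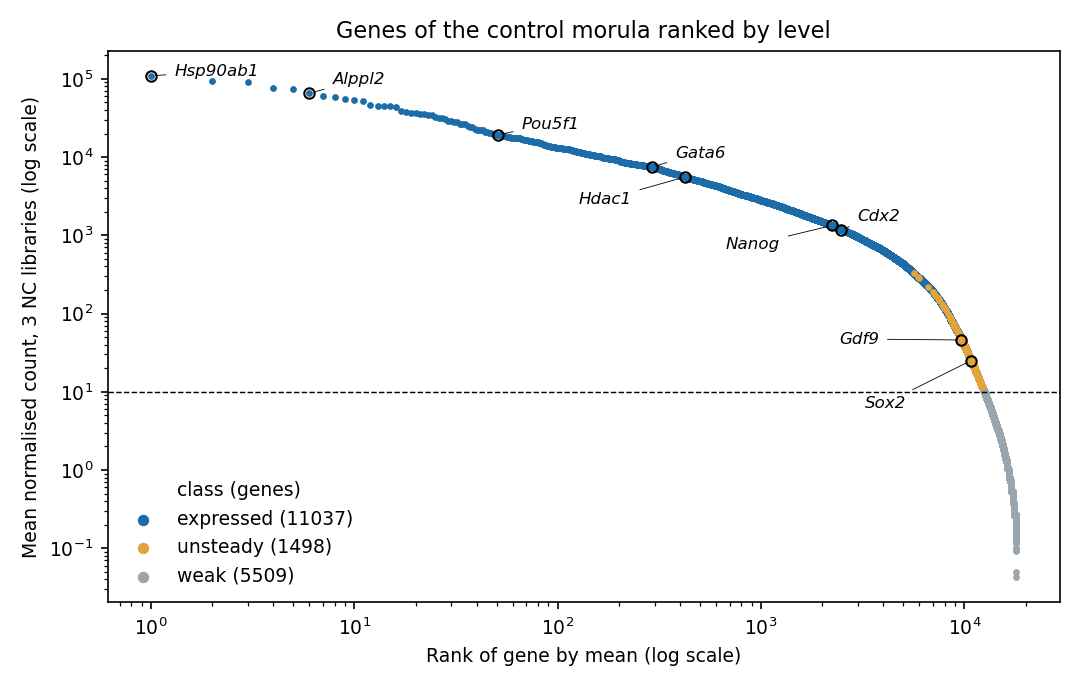
Mean normalised count over the 3 NC libraries (log scale) against the rank of the gene (log scale), 1 point per gene, coloured by class, with the 2043 absent genes not drawn and the dashed line at 10. Hsp90ab1 has rank 1, Pou5f1 rank 51, Hdac1 rank 422 and Cdx2 rank 2479, while Sox2 at 25.1 and the oocyte gene Gdf9 at 46.0 lie close to the limit.

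The classes differed in what kind of gene they held. Protein-coding genes made up 10298 of the expressed and 1220 of the absent genes, while annotated pseudogenes numbered 255 among the expressed and 678 among the absent. Predicted gene models, whose symbols begin with Gm or end in Rik, were 5.80% of expressed, 16.1% of unsteady, 29.6% of weak and 39.6% of absent genes. Gene length followed the same order, with a median of 4.43 kb of merged exons in expressed, 3.65 kb in unsteady, 2.44 kb in weak and 1.58 kb in absent genes. A longer transcript yields more fragments at the same number of molecules, so a limit on counts admits long genes at lower molar levels.

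An absent gene is one listed at 0 in the controls, and the depth sets how far that goes. No gene in the table is at 0 in all 9 libraries, so every absent gene had a value above 0 in at least 1 library outside the control group, and genes at 0 throughout are not listed. Over the estimated 37.6 M reads of the 3 libraries, a gene at 0 may still have stood at up to 0.0798 reads per M reads (3 reads, counting error only). Without NC replicate 1, the deepest library, 3696 genes in place of 2043 were at 0 in the libraries that remained. The share of genes at 0 was 15.4% in NC replicate 1, 23.4% in NC replicate 2 and 28.4% in NC replicate 3.

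Weak genes were mostly seen in some libraries only. Of 5509, a value above 0 was found in all 3 libraries for 1047, in 2 libraries for 1982 and in a single library for 2480, of which 1636 were in NC replicate 1, 547 in NC replicate 2 and 297 in NC replicate 3. Unsteady genes most often had their lowest value in NC replicate 3 (668 of 1498), against 429 in NC replicate 2 and 401 in NC replicate 1. At the limit itself, Tspan7, encoding a tetraspanin, was the expressed gene nearest to 10, with 10.003, 15.0 and 43.6 normalised counts. Klc3, encoding a kinesin light chain, lay just outside with 19.6, 37.2 and 9.9988, and Adora2b, encoding an adenosine receptor, was the weak gene with the highest mean, with 6.36, 12.8 and 10.9. A normalised count of 10 corresponded to 12.6, 9.51 and 6.43 estimated reads, so membership near the limit rests on few reads.

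The highest counts of the control morula belonged to cytosolic chaperones. Hsp90ab1, the constitutive form of the HSP90 chaperone, led the ranking with 112567, 106023 and 109251 normalised counts (109280.4 ± 3272), 0.834% of the total. It was followed by Hspa8, the constitutive HSP70 (93645 ± 8204), and by Hsp90aa1, the inducible HSP90 (92436 ± 11742), which did not differ from Hspa8 beyond their spread. Their helpers Dnaja1 (35919 ± 835) and Stip1 (29212 ± 1683), co-chaperones of HSP70 and of the HSP70 to HSP90 transfer, were also among the 100 genes with the highest mean. The 6 chaperone genes among these 100 took 2.85, 2.77 and 3.06% of the 3 totals, shares that lay close together. Hsp90ab1, Hspa8 and many other genes at this level have processed pseudogene copies in the mouse genome, so how reads were split between copies is uncertain.

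The stress-inducible HSP70 genes were lower per kilobase of merged exons, the scale on which genes can be compared. Hspa1b and Hspa1a, near-identical genes whose reads cannot be separated with certainty, stood at 289 ± 18.8 and 69.1 ± 23.3 normalised counts per kilobase, beside 21773 ± 1907 for Hspa8 and 36439 ± 1091 for Hsp90ab1. Hsf1, the heat-shock transcription factor, had 21.5, 138 and 224 normalised counts, highest in NC replicate 3. Hspa5, the endoplasmic reticulum HSP70, stood at 2699 ± 229.7. Of 21 listed chaperone and heat-shock genes, 20 were expressed, with a median of 1196 normalised counts per kilobase beside 11.3 for all genes. Hspa2, an HSP70 form best known from spermatogenesis, was the unsteady one with 0, 20.1 and 144.

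Mitochondrially encoded mRNA formed the next block. All 13 protein-coding genes of the mitochondrial genome were expressed, and 9 of them were among the 100 most abundant genes, with 3.08, 3.78 and 3.25% of the totals. NC replicate 2 had the largest of these shares. mt-Co1, a subunit of cytochrome c oxidase, had 73581, 79129.9 and 76602 normalised counts, and mt-Nd1, a subunit of complex I, had 69865, 81134 and 70452. Per kilobase, 8 of the 10 highest genes were mitochondrially encoded, led by mt-Nd1 at 77134 ± 6629 and mt-Nd2 at 57442 ± 10182. Gm20594, a predicted nuclear gene at 99969 ± 9672 per kilobase, ranked first on that scale, and it shares stretches of sequence with the large mitochondrial rRNA, so the origin of its reads is uncertain.

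Protein synthesis accounted for the largest group of abundant genes. Among the 100 highest means, 20 encode translation factors or mRNA-binding proteins, with 3.88, 3.67 and 3.77% of the totals, and 13 encode ribosomal proteins, with 1.68, 1.53 and 2.01%. The elongation factors Eef1a1 and Eef2, which deliver aminoacyl-tRNA and move the ribosome, stood at 55562 ± 2862 and 54230.0 ± 6559 normalised counts. Eif2s2, the beta subunit of the initiation factor that brings the initiator tRNA, had 31965, 31572 and 39189, and Pabpc4, a poly(A)-binding protein, had 39881, 32441 and 35009.7. All 23 listed translation factors and all 24 listed ribosome biogenesis genes were expressed. Npm1, nucleophosmin of the nucleolus, was the highest of the latter with 45590.0 ± 5049, followed by Ncl, nucleolin, with 24037 ± 2353. Myc, the transcription factor that drives ribosome production, stood at 585 ± 112 and its relative Mycn at 61.6 ± 19.2.

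Several abundant genes encode enzymes. Alppl2, a placental-type alkaline phosphatase of the early embryo's cell surface, was the sixth gene of the ranking with 69141, 61405 and 65675 normalised counts (65407 ± 3875). Per kilobase it stood at 28993 ± 1718, beside 22287 ± 1148 for Eef1a1 and 16315 ± 1973 for Eef2. Gpd1l, related to glycerol-3-phosphate dehydrogenase, had 64610.4, 55146 and 54510.2, and Isyna1, which makes inositol phosphate from glucose 6-phosphate, had 38180.1, 32227 and 33545. Other enzymes among the 100 were Odc1 of polyamine synthesis (31172 ± 1095), Bhmt of betaine-dependent methionine synthesis (28139 ± 2272), Impdh2 of guanine nucleotide synthesis (26724 ± 2485) and Gldc of glycine cleavage (16079 ± 932). Together 11 enzyme genes took 2.58, 2.37 and 2.46% of the totals.

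Autophagy and ubiquitin genes also stood high. Calcoco2, an autophagy receptor, reached 38309.9 ± 3542 normalised counts and Psap, the precursor of lysosomal saposins, 38096 ± 3864. Map1lc3b and Gabarapl2, which coat the autophagosome, had 16607 ± 1637 and 14276 ± 2276, and Ulk1, the kinase that starts autophagy, had 13883 ± 2023. The 11 abundant genes of protein and organelle turnover took 1.73, 1.65 and 1.70% of the totals. The groups of abundant genes were assigned by hand after the ranking was known and are descriptions.

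Abundance was spread over many genes. The 10 highest genes held 5.64% ± 0.0754 of the total, the 100 highest 21.0% ± 0.350, the 1000 highest 58.2% ± 0.535 and the 5000 highest 92.8% ± 0.374. From the top down, 671 genes made up 50% of the summed means, and 660, 689 and 654 did so when each library was ranked alone. Means of at least 10000 were reached by 166 genes and means of at least 1000 by 2878. Of the 100 highest genes of each library, 83 were common to all 3. On the per-kilobase scale 54 of the 100 remained among the 100 highest, and 13 of the 100 highest on that scale were annotated pseudogenes, such as Gm15459 and Gm15500.

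Pluripotency genes were mostly expressed. Of 26 listed genes of the inner cell mass and pluripotency, 24 were expressed, 1 was unsteady and 1 weak, and the median level per kilobase was 852 beside 11.3 for all genes. Pou5f1, the POU factor at the centre of the pluripotency network, had 19326, 19065 and 19477 normalised counts (19289 ± 208), a coefficient of variation of 1.08%. Dppa3, a maternal factor that shields the genome from demethylation, had 13626, 13904 and 17476. Fbxo15, an F-box protein typical of pluripotent cells, had 20015, 18329 and 19839. Tfcp2l1, Klf5 and Tbx3, transcription factors of naive pluripotency, stood at 11865 ± 1659, 11468 ± 752 and 9727 ± 1449.6. Nanog, the homeobox factor of the later epiblast, had 1012, 1257 and 1738, highest in NC replicate 3. Per kilobase, Pou5f1 exceeded Nanog 15.1 ± 3.94-fold (24.6-fold with the longest transcript), and it did so in all 3 libraries.

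The exceptions were Sox2 and Prdm14. Sox2, the partner of Pou5f1 and an early mark of inner cells, had 36.6, 34.0 and 4.66 normalised counts, with the value in NC replicate 3 equal to that of 3 reads (4.66). Prdm14, a chromatin regulator of naive pluripotency and germ cells, had 4.77, 4.24 and 7.77, under 10 in all 3 libraries. Fgf4, the growth factor that inner cells send to primitive endoderm precursors, was expressed at 196 ± 19.6.

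Trophectoderm genes were split between a high and a low set. Of 20 listed, 14 were expressed, 2 unsteady and 4 weak, with a median of 17.4 normalised counts per kilobase. Tead4, the DNA-binding partner of YAP at the top of the lineage, had 5126, 3743 and 3823 normalised counts and Tfap2c, an AP-2 factor acting beside it, had 4870.0, 3795 and 4152. Cdx2, the homeobox factor that defines the lineage, had 1461, 955 and 1142 (1186 ± 256), and Gata3, which acts parallel to Cdx2, had 709, 704 and 807. The keratins Krt8 and Krt18, which pair into the filaments of the first epithelium, stood at 1552 ± 508 and 620.2 ± 108. Hand1, a factor of later trophoblast giant cells, stood at 2248 ± 511.

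Eomes, Elf5 and Gata2, factors that take over in the mature trophectoderm and trophoblast, were lower. Eomes had 73.3, 133 and 27.5 normalised counts, with NC replicate 3 the lowest, Elf5 had 17.2, 11.1 and 0, and Gata2 had 2.96, 0 and 0. Among 8 listed genes of trophoblast after implantation, 3 were expressed, and Cited1, a transcriptional coactivator, led them at 1092 ± 99.5 normalised counts per kilobase, followed by Prl3b1, a placental prolactin, at 81.0 ± 42.1. Ctsq, a placental cathepsin, was listed at 0 in all 3 libraries.

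The primitive endoderm list was likewise split. Gata6, the factor that opposes Nanog in the inner cell mass, had 8314, 6889 and 7317 normalised counts (7506 ± 731). Gata4, which follows Gata6 in the lineage, had 599.7, 445 and 672. Per kilobase Gata6 exceeded Gata4 8.04 ± 1.40-fold (12.0-fold with the longest transcript). Dab2, an endocytic adaptor, stood at 2379.8 ± 501, and the basement membrane genes Col4a1 and Lamc1 at 1612 ± 373 and 1634 ± 188. Pdgfra, the receptor used to mark these cells, was expressed at 156 ± 23.4. The later factors were at the bottom, with Sox7 at 0.794, 0 and 4.67 and with Sox17 and Foxa2 listed at 0 in all 3 libraries. In all, 12 of 18 were expressed, 1 was unsteady, 3 were weak and 2 absent.

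**Figure D2:**
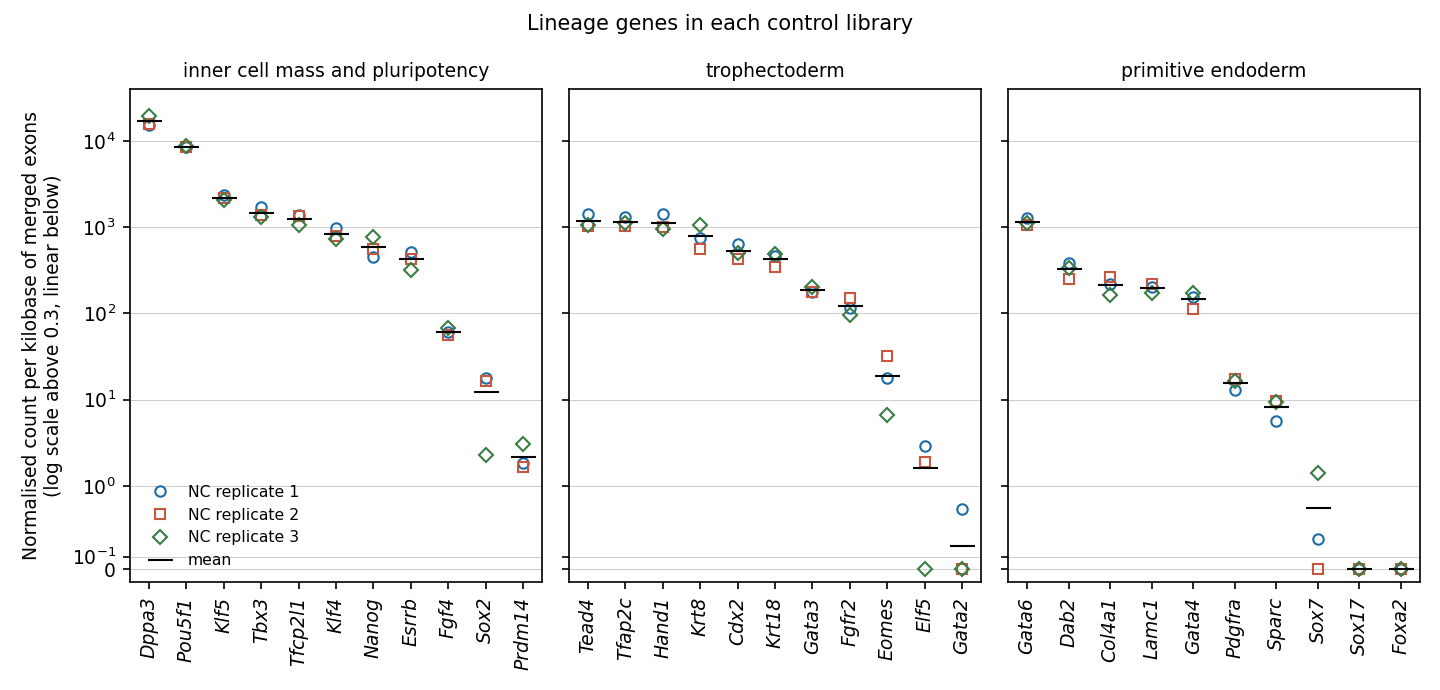
Normalised counts per kilobase of merged exons (vertical axis, log scale above 0.3 and linear below) of selected lineage genes, with a symbol for each NC library and a bar for the mean. Pou5f1, Tead4 and Gata6 lie above 1000 per kilobase in all 3 libraries, and the later factor Hand1 has a mean of 1126. Nanog, Cdx2 and Sox2 have means of 596, 524 and 12.2 per kilobase. Prdm14, Elf5, Gata2 and Sox7 lie under 10 and Sox17 and Foxa2 at 0.

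Genes of the germ layers after implantation were mostly low. Of 20 listed, 7 were expressed, against 54.9% of all genes, and 9 were weak. T (brachyury), Mesp1 and Foxa2, factors of mesoderm and endoderm, were absent. Pax6, a factor of the nervous system and eye, was the highest by count at 245 ± 70.7 normalised counts, and Gsc, goosecoid of the organiser, was the highest per kilobase at 76.6 ± 24.5.

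Markers of cells that could accompany embryos in a dish were measured from lists of their own. These held 12 blood, 12 sperm, 7 oviduct and 15 cumulus and granulosa genes, and only members among the named genes are counted. None of 7 blood genes and none of 7 sperm genes was expressed, with Prm1, Tnp2 and Odf1, packaging and tail proteins of sperm, at 0 in all 3 libraries. Of 6 oviduct genes none was expressed, and the oviduct glycoprotein Ovgp1 was unsteady with 27.2, 36.1 and 6.55 normalised counts. Among 10 cumulus and granulosa genes 3 were expressed, 6 were weak and 1 absent. Foxl2, the granulosa transcription factor, had 3.97, 7.41 and 7.77, and aromatase, Cyp19a1, was at 0 in all 3 libraries. Amhr2, the receptor for anti-Müllerian hormone, was expressed with 392, 414 and 321, and Star, of steroid synthesis, with 26.2, 14.8 and 32.6. Gja1, the gap junction protein connexin 43 that blastomeres also use, supplied most of that list's sum with 11064, 10230.1 and 9301 of 11510.3, 10669 and 9662. In the lists for other organs, the expressed genes were Syp and Tubb3 of 15 neuronal genes, Ckm and Myh7 of 12 muscle genes, and Tat of 9 liver and gut genes. Syp, a synaptic vesicle protein, had 527, 269 and 412, and Tat, tyrosine aminotransferase, had 314, 234 and 362.

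All 20 listed genes of compaction, adhesion and the cortical cytoskeleton were expressed, with a median of 329 normalised counts per kilobase. Cdh1, the E-cadherin that draws blastomeres together, had 6861, 6405 and 6447 normalised counts. Its cytoplasmic partners Ctnna1 and Ctnnb1, alpha- and beta-catenin, stood at 6782 ± 224 and 4239 ± 751. The cytoplasmic actins Actg1 and Actb were at 27995 ± 3978 and 17528 ± 2027, and per kilobase Actg1 exceeded Actb 1.63 ± 0.296-fold. Ezr, ezrin of the apical membrane, stood at 137 ± 32.9 per kilobase. Its relatives Rdx, radixin, and Msn, moesin, stood at 147 ± 8.81 and 16.5 ± 2.07.

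Of 17 polarity genes 15 were expressed. Crb3, the apical Crumbs protein of epithelia, had 2037, 1323 and 1811 normalised counts, while its relatives Crb1 and Crb2 had 2.38, 0 and 0 and 1.2514, 0 and 6.13. Pard6b and Prkci, the PAR6 form and atypical protein kinase C of the apical domain, stood at 465 ± 16.9 and 171 ± 42.3 per kilobase. The relatives Pard6a and Pard6g were lower on that scale, at 32.0 ± 16.8 and 25.2 ± 9.95.

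Genes that serve the future blastocyst cavity were mostly expressed. Of 19 tight junction and cavitation genes, 15 were expressed. Cldn4, a claudin, had 8299, 6272 and 7847 normalised counts. Per kilobase it exceeded Cldn7 3.52 ± 0.883-fold (2.41-fold with the longest transcript), Cldn6 stood at 122 ± 19.9, and Cldn3 was weak. The water channels Aqp3 and Aqp9 stood at 3576 ± 597 and 2152 ± 84.0. Per kilobase Aqp3 exceeded Aqp9 3.78 ± 0.775-fold (2.62-fold with the longest transcript). Tjp1 and Cgn, scaffold proteins ZO-1 and cingulin, stood at 2767 ± 579 and 2013 ± 303.

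All 22 Hippo pathway genes were expressed, with a median of 162 normalised counts per kilobase. Yap1, the coactivator that the pathway keeps out of the nucleus, had 4324, 3731 and 3666 normalised counts. Its relative Wwtr1 (TAZ) stood at 1542 ± 58.8. Among the DNA-binding partners, Tead4 per kilobase exceeded Tead1 15.2 ± 1.43-fold (13.0-fold with the longest transcript). Tead2 and Tead3 were lower still than Tead1, at 18.8 ± 6.75 and 10.3 ± 4.83 per kilobase. Of the kinases, Lats2 exceeded Lats1 2.34 ± 0.452-fold per kilobase (3.10-fold with the longest transcript). Stk4 (MST1) stood at 419 ± 127 against 31.7 ± 13.3 per kilobase for Stk3 (MST2). Nf2, the membrane activator merlin, stood at 3076 ± 464 normalised counts, and Amot, angiomotin of inner-cell junctions, at 2861 ± 347.

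In each of the 4 signalling lists, none of the 3 highest genes per kilobase was a ligand. Of 23 FGF genes 19 were expressed. The adaptor Grb2 stood at 615 ± 175 per kilobase and the exchange factor Sos1 at 425 ± 62.2. Fgfr2, the trophectoderm and primitive endoderm receptor, stood at 1259.6 ± 293 normalised counts and Fgfr1 at 923 ± 157. The 2 overlapped per kilobase, with 117, 153 and 96.7 for Fgfr2 and 109, 77.5 and 93.8 for Fgfr1. The ligands Fgf3, Fgf4 and Fgf1 stood at 68.3 ± 5.48, 61.5 ± 6.12 and 32.3 ± 5.36 per kilobase, and Fgf8 was weak.

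For the WNT pathway, 18 of 26 genes were expressed, 7 weak and 1 absent. Gsk3a and Axin1 of the destruction complex stood at 1439 ± 191 and 1283 ± 176 normalised counts, and Porcn, which lipidates WNT ligands, at 505 ± 20.9. Among the ligands, Wnt7b and Wnt3a stood at 21.7 ± 9.15 and 21.4 ± 4.50 per kilobase, which overlap, and the target genes Axin2 and Lef1 stood at 29.974 ± 21.5 and 20.8 ± 10.2 normalised counts. Fzd1, a receptor, was absent.

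For Nodal, activin and BMP signalling, 20 of 27 genes were expressed. Tdgf1, the coreceptor Cripto, had 2376, 2302 and 2052 normalised counts, but its ligand Nodal had 3.18, 7.43 and 0 and the Nodal targets Lefty1 and Lefty2 were weak at 1.21 and 2.82. Id3, a BMP-responsive gene, stood at 1488 ± 373, but its relatives Id1 and Id2 at 60.4 ± 14.9 and 39.2 ± 21.4. Bmpr1a, a BMP receptor, stood at 1273 ± 267. Of the other ligand genes, Gdf3, Inhbb, Bmp15 and Bmp2 were expressed at 157, 150, 22.9 and 22.8. Bmp7 was unsteady and Inhba weak, and Bmp4 was unsteady with 4.6028, 18.4 and 7.83. In the Notch pathway 14 of 18 genes were expressed, with Rbpj, its DNA-binding factor, at 2649 ± 384, the target gene Hes1 at 875 ± 51.1 and the receptor Notch1 at 823 ± 285. Hes5, another target gene, was absent. Among the ligands, Jag2 stood at 959 ± 138, Dll3 at 118 ± 13.3 and Jag1 at 25.2 ± 5.85, while Dll1 and Dll4 were weak at 1.67 and 0.529.

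The genes that the series knocked down in its other groups had clear levels in the controls. Hdac1, a histone deacetylase of the class I type, had 6245, 4925 and 5536 normalised counts (5569 ± 661) and ranked 422 of 20087. Its close relative Hdac2 had 2347, 2020.3 and 2492 (2286 ± 241). Per kilobase Hdac1 exceeded Hdac2 3.17 ± 0.285-fold, with ratios of 3.46, 3.17 and 2.89 in the 3 libraries. With the longest transcript the mean ratio was 3.89. Sin3a, the scaffold that joins both deacetylases to transcription factors, had 1779, 1215 and 1459 (1484 ± 283), and it exceeded its relative Sin3b 2.66 ± 0.583-fold per kilobase of merged exons and 1.54-fold per kilobase of the longest transcript. Hdac1 has a processed copy, annotated as Gm10093, which stood at 692 ± 221, and how reads were split between them is uncertain.

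Among 18 deacetylases 13 were expressed, 3 unsteady and 2 weak. The class I enzymes Hdac3 and Hdac8 were lower than Hdac1, which stood at 1616 ± 192 normalised counts per kilobase. Hdac3 stood at 82.7 ± 8.40 and Hdac8 at 8.62 ± 10.056 per kilobase, beside 11.3 for all genes. Hdac8 had 12.0, 15.3 and 97.9 normalised counts, highest in NC replicate 3. Of the NAD-dependent sirtuins, Sirt1 and Sirt6 led with 367 ± 19.6 and 368 ± 40.9 per kilobase, and Sirt5 was weak. All 32 listed partners in the SIN3, NuRD and CoREST complexes were expressed. Rbbp7, a histone-binding subunit shared by SIN3 and NuRD, led with 8771, 7106 and 7861 normalised counts. It exceeded Rbbp4 5.89 ± 0.465-fold per kilobase (4.07-fold with the longest transcript). Chd4, the NuRD remodeller, stood at 788 ± 94.0 per kilobase and its relative Chd3 at 10.5 ± 2.7488.

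All 19 genes of DNA methylation and its removal were expressed. Trim28, the corepressor that holds imprinted regions and retroviral repeats silent, had 19395, 13728 and 16009.9 normalised counts. Dnmt3b, a de novo methyltransferase, had 2173, 2386 and 1786. Per kilobase it exceeded Dnmt3a 3.79 ± 0.771-fold and the maintenance enzyme Dnmt1 3.27 ± 0.497-fold. With the longest transcript these ratios were 2.61 and 3.08. Among the dioxygenases that oxidise methylcytosine, Tet1 had 1223, 1893 and 1035 and Tet2 had 256, 209.7 and 889, and their order in NC replicate 3 turned with the length used (a Tet1 to Tet2 ratio of 1.27 per kilobase of merged exons and of 0.743 per kilobase of the longest transcript). Of 29 Polycomb and H3K27 genes 28 were expressed. Suz12 and Jarid2, core subunit and cofactor of PRC2, stood at 11096 ± 472 and 11611 ± 1173, and Ezh2 exceeded Ezh1 7.18 ± 2.61-fold per kilobase. Phf19, a PRC2 accessory protein, was the weak one at 2.88 ± 2.72.

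Glucose handling was measured from 22 genes, of which 20 were expressed. Slc2a3, the GLUT3 transporter, had 3300.0, 5499 and 3474 normalised counts, and it exceeded Slc2a1 (GLUT1) 3.60 ± 0.637-fold per kilobase. Pgam1 was the highest per kilobase at 2453 ± 338 among the 21 listed genes with a length, which leaves out Aldoa. The hexokinases Hk1 and Hk2 stood at 416 ± 64.2 and 282 ± 33.8 per kilobase, and their ratio was 1.48 ± 0.117 with merged exons and 2.72 with the longest transcript. Gapdh, Ldha and Pgk1, abundant in most somatic cells, stood at 728 ± 204, 306 ± 96.3 and 287 ± 39.7 normalised counts. These 3 genes have many near-identical pseudogenes, so part of their reads may have been assigned elsewhere.

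Genes of pyruvate use, the fuel of the early cleavage embryo, were expressed in 20 of 23 cases with a median of 236 normalised counts per kilobase. Pdha1, of the enzyme complex that feeds pyruvate into the citrate cycle, had 8162, 8076 and 7195 normalised counts, and Mdh2, mitochondrial malate dehydrogenase, had 4243, 4013 and 3999. The kinases that switch this entry off lay under the list median of 236, beside 11.3 per kilobase for all genes. Pdk1 stood at 12.5 ± 7.09, Pdk3 at 11.3 ± 3.01, Pdk2 at 4.34 ± 1.17 and Pdk4 at 0.577 ± 0.564 per kilobase. Pcx, pyruvate carboxylase, was weak with 0, 7.51 and 0. Among 21 antioxidant genes 20 were expressed, led per kilobase by the glutathione peroxidases Gpx4 (1944 ± 202) and Gpx1 (1585 ± 424), and Nqo1 was unsteady with 13.5, 16.0 and 9.32.

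Cell cycle genes were expressed with 1 exception, and 38 of 39 listed passed in all 3 libraries with a median of 409 normalised counts per kilobase. Ccnb1, cyclin B1 of mitosis, had 10198, 8635 and 8526 normalised counts, and Cdc20, activator of the anaphase-promoting complex, had 6460.4, 4714 and 5761. Ccne1, cyclin E1 of S-phase entry, exceeded Ccne2 20.1 ± 5.73-fold per kilobase. The D cyclins, which answer to growth factors, were lower, with Ccnd3, Ccnd1 and Ccnd2 at 239 ± 34.4, 51.8 ± 11.7 and 2.7525 ± 0.392 per kilobase, and Ccnd3 exceeded Ccnd1 4.82 ± 1.47-fold with merged exons and 8.71-fold with the longest transcript. Of the retinoblastoma family, the brake on S-phase entry, Rbl1 stood at 34.4 ± 7.11 and Rb1 at 3.41 ± 0.815 per kilobase, beside 11.3 for all genes. The exception Rbl2 had 47.6, 25.8 and 0 normalised counts.

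Of 8 inhibitors of cyclin-dependent kinases, 4 (50%) were expressed, near the 54.9% of all genes, and Cdkn1a (p21) stood apart. It had 3088, 2991 and 3923 normalised counts, while Cdkn1b (p27) had 2.82, 11.8 and 20.7 and Cdkn1c (p57) 63.5, 41.7 and 38.9. Per kilobase Cdkn1a exceeded Cdkn1c 42.3 ± 15.0-fold (67.4-fold with the longest transcript). Among 24 genes of p53 and cell death, 21 were expressed, 2 were weak and 1 absent. Trp53 itself stood at 1223 ± 104 and its antagonist Mdm2 at 1218 ± 253. Mcl1, a short-lived protector from apoptosis, had 7260.1, 6085 and 5801 and exceeded Bcl2l1 14.3 ± 3.08-fold per kilobase (8.01-fold with the longest transcript), while Bcl2 was weak at 9.31 ± 7.48. The receptor pathway of apoptosis was at the bottom, with Casp8 at 0.794, 0 and 0 and Fas at 0 in all 3 libraries.

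Oocyte and maternal transcripts were low. Of 33 listed, 11 were expressed, 6 unsteady, 13 weak and 3 absent, with a median of 4.43 normalised counts per kilobase beside 11.3 for all genes. Gdf9, an oocyte growth factor, had 68.6, 29.9 and 39.5 normalised counts, Zp3, of the egg coat, had 77.4, 60.9 and 104, and Mos, the kinase that arrests the egg in metaphase, had 0, 5.34 and 1.55. Figla, Zar1l and Lhx8, regulators or products of the growing oocyte, were absent. Khdc3, of the maternal complex beneath the oocyte membrane, had 10822, 9477 and 10671. Per kilobase it stood at 5036 ± 359, against 132 ± 28.0 for Padi6, 21.4 ± 9.64 for Ooep, 21.4 ± 6.76 for Tle6 and 12.5 ± 6.76 for Nlrp5, the other expressed members of that complex.

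Genes activated at the 2-cell stage ranged from high to absent. Of 29 listed, 19 (65.5%, beside 54.9% of all genes) were expressed, 1 was unsteady, 8 were weak and 1 absent. Pramel6 and Pramel7, leucine-rich repeat proteins of the early embryo, stood at 6208 ± 250.1 and 6102 ± 985 normalised counts. Obox6, an oocyte-specific-type homeobox gene, had 4453, 3861 and 4354. The Zscan4 cluster, the classical mark of the 2-cell state, was weak or absent, with Zscan4d at 2.49, 9.13 and 13.4, Zscan4f at 5.28, 13.0 and 8.11 and Zscan4c at 0 in all 3 libraries. The copies of Zscan4, Tdpoz, Usp17l and Pramel genes are nearly alike, so values of single copies are uncertain.

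The imprinted list had 15 of 21 genes expressed. Igf2r, the receptor that removes IGF2, had 17556, 16766 and 12349 normalised counts, while Igf2 itself had 37.0, 32.5 and 110.1. Snrpn and Gnas stood at 2848 ± 126 and 3623 ± 149.96, and Dlk1, Peg10, Ndn and Mest were weak. In the small RNA pathway, 16 of 19 genes were expressed. Ago2, the slicing Argonaute, had 12176, 15061 and 11120.0 and exceeded Ago1 8.46 ± 2.91-fold per kilobase. Dicer1 stood at 415 ± 25.5 and Piwil2, a germline PIWI protein, at 1052 ± 60.5, whereas Piwil4 was absent.

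All embryos here had received double-stranded RNA, so interferon genes were listed too. Of 18, 8 were expressed, 2 unsteady, 5 weak and 3 absent, against 54.9% of all genes expressed. The effector genes Isg15 (1.61, 0 and 0 normalised counts) and Ifit1 (0, 1.06 and 0) and the sensor Ifih1 (2.24, 0 and 0) were weak, and Oas2, Mx2 and Tlr3 were absent. Oasl2 stood at 325 ± 48.7 and Mx1 at 108 ± 37.4. Without uninjected embryos, an effect of the injection on these levels cannot be told apart from their usual level.

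**Figure D3:**
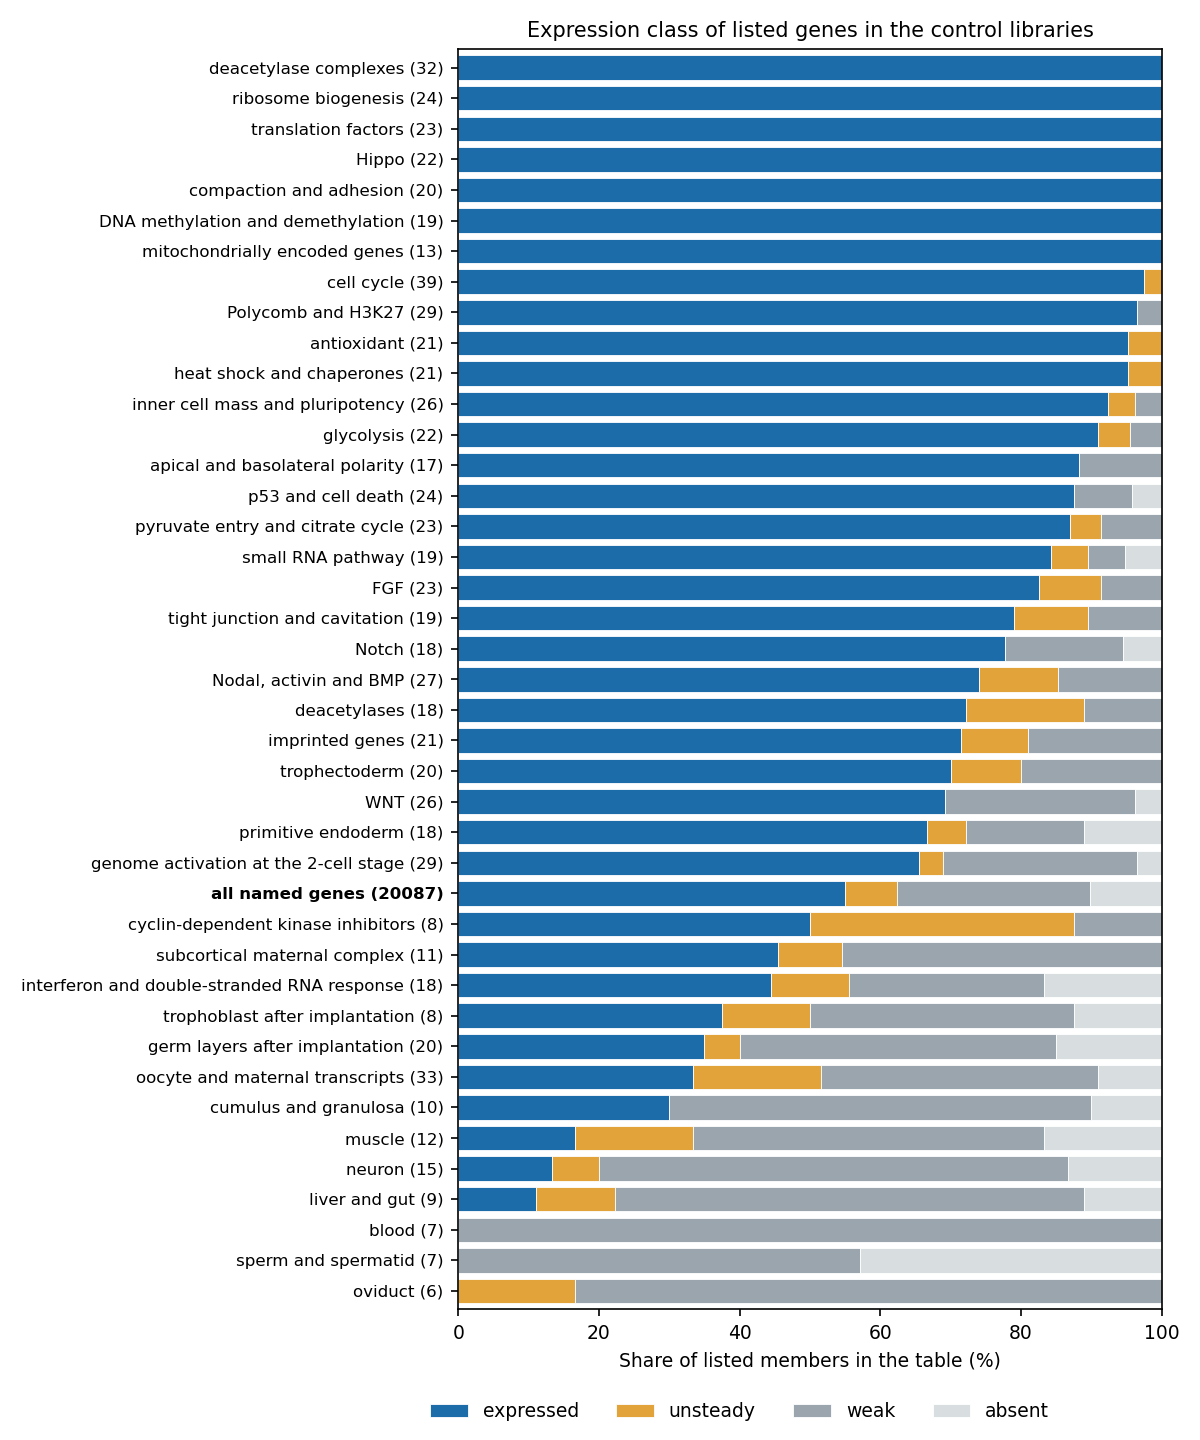
Share of the members of each of the 40 gene lists (number in the table in brackets) that were expressed, unsteady, weak or absent in the 3 NC libraries, with all named genes in bold. Lists of translation, ribosome biogenesis, Hippo, compaction, DNA methylation, deacetylase complexes and mitochondrial genes were expressed in full, while the oviduct, blood and sperm lists had no expressed member.

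Over the 40 lists, 777 of 831 entries were in the table and 580 entries were expressed. The lists were written from general knowledge of the early embryo, so a high share of expressed members is partly a matter of their choice.

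Promoter features followed the order of the classes. Of the named genes 12913 were in the RefSeq promoter table (build GRCm38.p6), and the 10495 with exactly 1 start were used, over the 250 bases before the start. These covered 6561 of 11037 expressed and 767 of 2043 absent genes. Genes at 0 in all 9 libraries are not listed, so the absent class does not stand for all silent genes. CpG dinucleotides were counted against the number that base composition alone would give, the CpG observed over expected ratio. Its median was 0.761 in expressed, 0.556 in unsteady, 0.349 in weak and 0.272 in absent genes, beside 0.661 over all promoters. Within the expressed genes it rose from 0.635 in the fifth of genes with the lowest means to 0.829 in the fifth with the highest.

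Motifs were searched on both strands as exact letters. The GC box GGGCGG, the core that SP1-type factors bind, was in 62.8% of expressed, 49.0% of unsteady, 35.7% of weak and 27.4% of absent promoters, beside 53.03% of all. The ETS-type sequence CCGGAAG was in 15.8% of expressed and 2.74% of absent promoters, beside 11.5% of all. The TATA-type sequence TATAAA ran the other way, from 5.67% of expressed to 16.4% of absent promoters, beside 8.24% of all, and in the sense direction between positions -40 and -16 it was in 1.02% and 5.08%. CACGTG, the E-box of MYC- and USF-type factors, was in 19.3% of the 57 promoters of abundant genes (11 promoters) and in 7.65% of all. It was in 8.81% of expressed promoters and in 10.3% of the fifth of expressed genes with the highest means. TATAAA was in 8.77% of the promoters of abundant genes. The median share of G and C followed the order of the classes, at 60.4% in expressed, 57.6% in unsteady, 53.6% in weak and 51.6% in absent promoters. Its part in the motif shares was not tested.

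**Figure D4:**
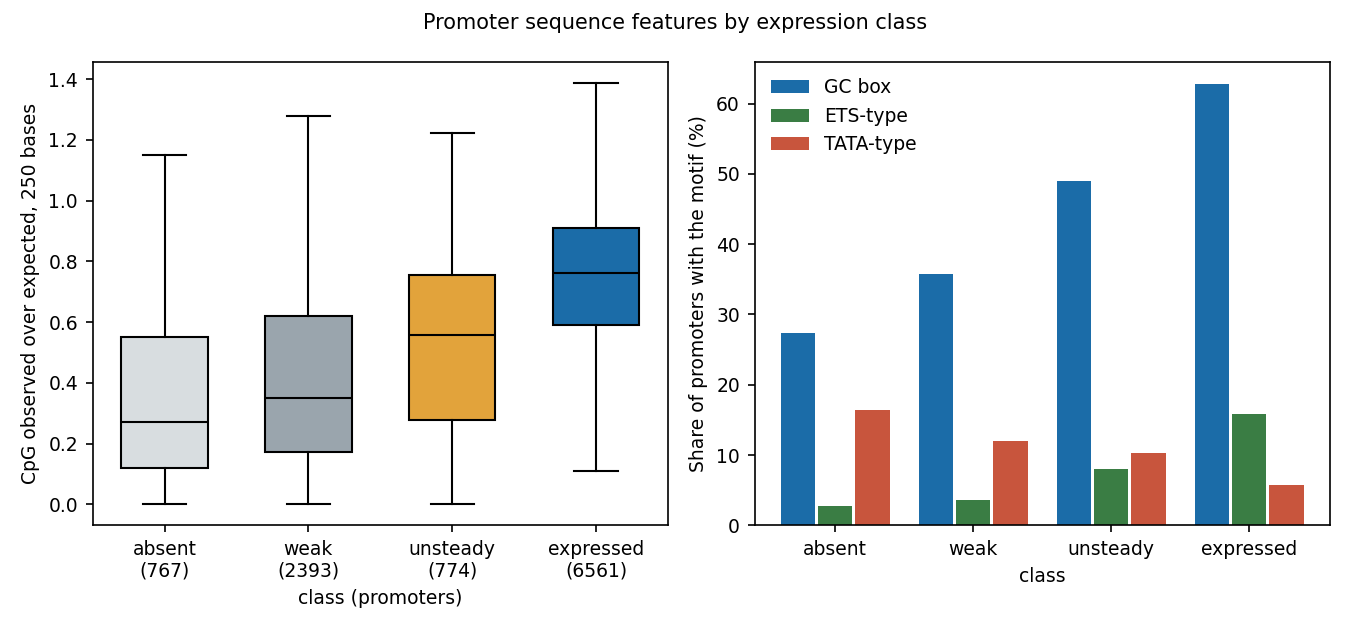
Left, CpG observed over expected in the 250 bases before the start by class (boxes are quartiles with the median, whiskers reach 1.5 times the box, number of promoters in brackets). Right, percent of promoters of each class with the GC box, the ETS-type or the TATA-type sequence. CpG ratio, GC box and ETS-type sequence rise from absent to expressed genes, and the TATA-type sequence falls.

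Single promoters show the types and the exceptions. The last 100 bases before the start are given 5′ to 3′ on the strand of the gene, with matches to the motifs above in capitals (CCGCCC is GGGCGG on the other strand). Trim28 (chr7:13024052-13024151, plus strand) shows the common type of an expressed gene, with a GC box, no TATAAA in the stretch shown and a CpG ratio of 0.730. Hdac2 (chr10:36974444-36974543, plus strand) is of the same kind with a ratio of 0.931. Tfcp2l1 (chr1:118627845-118627944, plus strand) is a high gene with TATAAA, and Eef2 (chr10:81176531-81176630, plus strand) has both TATAAA and CACGTG. Mup4 (chr4:59960668-59960767, minus strand), a urinary protein gene of the liver, is an absent gene with TATAAA and few CpG.
Trim28: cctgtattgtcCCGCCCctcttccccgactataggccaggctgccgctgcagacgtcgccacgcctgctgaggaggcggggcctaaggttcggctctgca
Hdac2: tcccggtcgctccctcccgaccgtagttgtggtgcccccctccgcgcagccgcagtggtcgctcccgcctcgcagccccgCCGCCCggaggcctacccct
Tfcp2l1: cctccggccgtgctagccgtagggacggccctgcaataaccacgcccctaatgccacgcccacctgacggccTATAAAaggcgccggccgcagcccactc
Eef2: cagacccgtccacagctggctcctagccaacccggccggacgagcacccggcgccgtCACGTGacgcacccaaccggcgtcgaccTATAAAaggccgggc
Mup4: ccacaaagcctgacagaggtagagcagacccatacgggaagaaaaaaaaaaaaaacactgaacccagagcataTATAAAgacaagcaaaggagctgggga

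A pair of genes ran against the class medians, and both were picked after their values were seen. Alppl2 (chr1:87089929-87090028, minus strand), at 65407 ± 3875 normalised counts, had a CpG ratio of 0.165, under the median of absent genes, and no match to the 4 motifs above in the stretch shown. Hes5 (chr4:154960823-154960922, plus strand), listed at 0 in all 3 libraries, had a ratio of 0.9995, above the median of expressed genes.
Alppl2: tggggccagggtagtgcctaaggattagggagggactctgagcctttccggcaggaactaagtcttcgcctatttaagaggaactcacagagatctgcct
Hes5: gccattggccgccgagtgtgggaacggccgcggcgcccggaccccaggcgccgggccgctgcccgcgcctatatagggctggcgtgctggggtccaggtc

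The 3 control libraries resembled each other, and the spread between them depended on the level. Across the 11037 expressed genes, log2(normalised count + 1) correlated with a Pearson r of 0.970 between NC replicates 1 and 2, 0.968 between 1 and 3, and 0.956 between 2 and 3 (across genes, which are not independent replicates). More than 2-fold apart were 8.33%, 8.63% and 12.1% of the expressed genes in these pairs. The class rule had already left out genes under 10 in any library. Over all named genes the lowest Pearson r was 0.938. The median coefficient of variation (CV, the SD as a percent of the mean) was 111% for genes with means of 1 to 10, 46.4% for 10 to 100, 18.0% for 100 to 1000, 11.3% for 1000 to 10000 and 9.43% above.

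A small number of well-expressed genes rested on 1 library. Of 8298 genes with a mean of at least 100, 6 had over 90% of their sum in a single library and 13 were at 0 in at least 1 library, 9 of these in NC replicate 3. Zfp775, a zinc finger gene, had 0, 449 and 0 normalised counts, all in NC replicate 2. Wdfy4, known from immune cells, had 2.03, 349 and 3.99, again almost all in NC replicate 2. Ddx41, an RNA helicase, had 989.6, 32.9 and 34.2, nearly all in NC replicate 1. Ttn, titin of striated muscle, had 239.8, 1059 and 15.3, and Notch4, a Notch receptor, had 63.7, 25.0 and 326, with their highest values in NC replicates 2 and 3. Lars2, a mitochondrial leucyl-tRNA synthetase, had 252, 0 and 620.4, at 0 in NC replicate 2 only.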

How the data were processed

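Polyadenylated RNA was sequenced from pools of embryos, and the 3 NC libraries were described. The submitters' processing notes name Salmon for counting, DESeq2 for normalisation and the build GRCm38, with no version or transcript annotation, which are not given in sources used here. The authors deposited signal values, read counts per gene after DESeq2 scaling. Whole reads could not be recovered, since 47.9% to 62.5% of low values lay on the step of 1 read. Depth was estimated from that step, at 8.38 to 17.0 M reads. A line without a name (0.00543% to 0.00596% of a total) was left out.

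Genes were ranked by the mean of the 3 libraries and classed at a limit of 10. Symbols of 19104 genes (95.1%) matched 1 gene of GENCODE vM21, whose merged exons gave lengths and whose table gave gene types. No group was compared and no test was made, since 1 group was described. Correlations used a pseudocount of 1. The sequence CCAAT was also searched in promoters and is not capitalised in the sequences shown. It was in 37.6% of expressed, 33.8% of absent and 24.6% of abundant promoters, beside 36.6% of all. Python 3.11.15, pandas 2.3.3, numpy 2.4.6 and matplotlib 3.10.9 were used. The step estimate was tested on simulated data in which more low values lay on the step than in these libraries. Its error in these libraries was therefore not tested.

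The members, lists and limits were chosen with earlier results of these data known. The genes named are the 25 highest by mean and by level per kilobase, per list up to 6 highest per kilobase and up to 4 at 0, the 10 highest CVs, those nearest each limit, the study's targets and the 5 highest of each family. Examples were picked from these, and other genes named, the pairs, the roles of abundant genes and the promoters shown were chosen after their values were seen. Alternatives were other limits, lengths, scalings and pseudocounts, and leaving out each library.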

Additional observations from a re-analysis of the deposited data

How the results depend on the processing

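Of 55 alternatives of counts, shares and correlations, 48 stayed within 1.5 times the count or within 1 SD of the share or correlation. The number of unsteady genes was 923 to 1209 with a library left out, lowest without NC replicate 3, and that of absent genes 2350 to 3696, highest without NC replicate 1, the deepest. With predicted gene models left out, 1234 genes were absent. Per kilobase of merged exons the 100 highest genes held 36.4% of the sum and 275 genes made up 50%. Without mitochondrial genes and Gm20594, an alternative added after the data were seen, the 100 highest held 18.99%. Over all named genes, in place of the expressed ones, the lowest Pearson r between libraries was 0.938. Limits of 5 and 20 gave 11864 and 10140 expressed genes, and leaving out a library gave 11342 to 11576. Of 40 list medians per kilobase, 21 moved with the length of the longest transcript. The limit and the scaling to equal totals cannot change the absent class by construction. Likewise, leaving out a library can only keep or raise the numbers of expressed and absent genes. No paired analysis was possible because only 1 group was described. As for depth, 3 reads correspond to 2.37, 3.16 and 4.66 normalised counts in the 3 libraries.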

Other observations

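Gene families defined by symbol gave a second view of the control morula. Genes at 0 in all 9 libraries are not listed, so each family count covers only its listed members. The counts are read beside the 54.9% of all named genes that were expressed. Of 88 cytosolic ribosomal protein genes 86 were expressed, and together they made up 4.68, 4.30 and 5.45% of the totals, highest in NC replicate 3. Near-complete expression was also found for mitochondrial ribosomal proteins (76 of 77), aminoacyl-tRNA synthetases (34 of 35), importins and nucleoporins (38 of 41), nuclear genes of the respiratory chain (84 of 92) and proteasome subunits (43 of 48). At the other end, 2 of 38 Hox genes, 2 of 43 protocadherins, 2 of 65 vomeronasal receptors and none of 7 major urinary protein genes were expressed. Among 134 olfactory receptor genes 8 were expressed and 54 absent, and Olfr624 stood highest with 322, 309 and 256 normalised counts. Of 19 Sox genes 6 were expressed, led by Sox15 at 2392 ± 286 and Sox13 at 1543 ± 121, while Sox2 stood at 25.1 ± 17.7. Only 13 of 77 histone genes were expressed in these poly(A)-selected libraries, and replication-dependent histone mRNAs are known to lack a poly(A) tail. Cyp2s1 at 10199.8 ± 755 and the creatine transporter Slc6a8 at 11070.4 ± 1002 were the highest of the cytochrome P450 and solute carrier families. Of these families 8 of 61 (13.1%) and 191 of 353 (54.1%) were expressed, the latter near the 54.9% of all genes.

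The share of expressed genes was lower on the X chromosome than on the autosomes. Of 951 genes on X, 352 (37.0%) were expressed and 19.5% absent, against 56.3% and 9.46% of 18068 autosomal genes. Among expressed genes the median level per kilobase was 66.4 on X and 80.9 on the autosomes, with 64.6, 73.4 and 62.5 on X and 80.7, 81.4 and 79.6 on the autosomes in the 3 libraries. Of 37 genes on Y 7 were expressed, and Ddx3y, an RNA helicase gene on Y, had 420.1, 558 and 469.8 normalised counts. Gene content differs between these chromosomes, and no test was made.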
